A study of Homo sapiens with 18 samples.

Results

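The 44 protein-coding genes that encode the chains of the human collagens were followed in U87MG glioblastoma cells with and without Erastin. They were taken from the 58302 genes of the deposited count table as every protein-coding gene whose symbol is COL, a type number, A and a chain number. By the supramolecular form of the protein, 11 of the genes were fibrillar, 8 belonged to basement membranes and 25 were other collagens. The fibrillar group held types I, II, III, V, XI, XXIV and XXVII. The basement membrane group held the 6 chains of type IV with COL15A1 and COL18A1. The other group held the beaded filament type VI, the anchoring fibril type VII, the short-chain network types, the collagens that sit on fibrils, the transmembrane collagens and 2 chains of no settled class.

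The study compared U87MG cells under normal growth conditions with cells given 10 μM Erastin for 72 h. Erastin blocks cystine import and brings about ferroptosis, a cell death driven by lipid peroxidation. U87MG is an established human glioblastoma line, kept in DMEM with fetal bovine serum and antibiotics, and both groups came from this single line. Total RNA was sequenced in 2 control and 2 Erastin libraries, with totals from 29412656 to 31513519 counts on genes, and nothing in the labels says that the libraries of a group came from separate cultures. The p-values therefore measure the spread between these libraries, which may be technical. Of the 9 astroglial markers, AQP4 had 0 counts in every library, S100B 0 to 2, SOX2 0 to 6 and ALDH1L1 6 to 22, while GFAP, SLC1A2 and OLIG2 had 33 to 88. SLC1A3 (1741 and 1725 against 307 and 326 counts) and NES (1277 and 972 against 105 and 77) were higher in control cells and called down. Of the 5 mesenchymal markers used, VIM and CD44 had 31559 to 77887 counts, TAGLN and S100A4 had 82 to 156, and THY1 had 0 or 1. As RNA was taken from whole cultures, fewer cells of a kind and less RNA per cell cannot be told apart.

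Collagens are trimers of chains that wind around each other in a triple helix. Fibrillar collagens assemble into the banded fibres that give tissue its tensile strength, type IV forms the sheet-like network of basement membranes, and type VI forms fine beaded filaments that lie between cells and fibres. Healthy brain tissue holds little fibrillar collagen outside its vessels and coverings, whereas gliomas can deposit collagen in their matrix, where it is bound by integrins and discoidin domain receptors. Making the triple helix needs hydroxylation of prolines and lysines, dedicated chaperones and large transport carriers in the secretory pathway, and the secreted procollagen is then trimmed and crosslinked outside the cell.

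The start regions of 6 of the genes are shown. COL4A1 and COL4A2 are a pair that lie head to head and are read from one shared stretch. Transcripts of COL6A3, COL11A1 and COL15A1 fell, and those of COL12A1 were slightly higher. A link between these sequences and the changes was not tested. Each region is the RefSeq window of GRCh38.p14 from 250 bases before to 50 bases after the annotated start, written 5′ to 3′ on the strand of the gene. Capitals mark any match on either strand to the letters TATAAA, which is the core of a TATA box, to CCAAT, which names the box of that name, to GGGCGG, which is the GC box bound by Sp1, or to TGANTCA, which is the site of AP-1.
COL4A1, chr13:110307108-110307407, minus strand: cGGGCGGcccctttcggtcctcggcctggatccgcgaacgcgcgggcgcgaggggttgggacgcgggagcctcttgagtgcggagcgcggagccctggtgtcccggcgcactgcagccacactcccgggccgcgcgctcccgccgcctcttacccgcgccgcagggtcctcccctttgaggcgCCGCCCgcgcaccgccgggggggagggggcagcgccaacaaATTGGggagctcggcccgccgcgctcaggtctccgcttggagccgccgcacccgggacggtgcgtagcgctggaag
COL4A2, chr13:110307034-110307333, plus strand: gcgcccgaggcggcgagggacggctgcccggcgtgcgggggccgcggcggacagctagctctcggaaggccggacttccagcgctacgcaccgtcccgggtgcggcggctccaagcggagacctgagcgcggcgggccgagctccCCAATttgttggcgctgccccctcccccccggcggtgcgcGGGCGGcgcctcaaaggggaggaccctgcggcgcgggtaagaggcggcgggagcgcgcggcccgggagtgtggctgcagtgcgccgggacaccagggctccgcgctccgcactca
COL6A3, chr2:237414115-237414414, minus strand: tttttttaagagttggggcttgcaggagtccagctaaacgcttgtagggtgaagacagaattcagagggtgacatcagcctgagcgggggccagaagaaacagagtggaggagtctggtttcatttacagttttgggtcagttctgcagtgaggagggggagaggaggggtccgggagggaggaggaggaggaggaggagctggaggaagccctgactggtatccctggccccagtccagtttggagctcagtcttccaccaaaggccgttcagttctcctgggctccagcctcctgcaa
COL11A1, chr1:103108473-103108772, minus strand: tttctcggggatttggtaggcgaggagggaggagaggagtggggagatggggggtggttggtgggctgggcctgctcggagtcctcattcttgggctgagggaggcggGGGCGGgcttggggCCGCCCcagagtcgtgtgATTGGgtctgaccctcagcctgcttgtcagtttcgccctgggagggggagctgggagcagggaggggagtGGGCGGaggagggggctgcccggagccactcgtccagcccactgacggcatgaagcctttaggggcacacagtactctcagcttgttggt
COL15A1, chr9:98943657-98943956, plus strand: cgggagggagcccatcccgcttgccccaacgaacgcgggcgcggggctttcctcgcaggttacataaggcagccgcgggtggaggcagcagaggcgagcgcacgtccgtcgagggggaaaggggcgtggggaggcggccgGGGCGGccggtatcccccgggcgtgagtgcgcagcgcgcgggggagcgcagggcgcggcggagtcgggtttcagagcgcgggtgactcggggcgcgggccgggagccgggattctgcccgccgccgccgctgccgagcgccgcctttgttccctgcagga
COL12A1, chr6:75206004-75206303, minus strand: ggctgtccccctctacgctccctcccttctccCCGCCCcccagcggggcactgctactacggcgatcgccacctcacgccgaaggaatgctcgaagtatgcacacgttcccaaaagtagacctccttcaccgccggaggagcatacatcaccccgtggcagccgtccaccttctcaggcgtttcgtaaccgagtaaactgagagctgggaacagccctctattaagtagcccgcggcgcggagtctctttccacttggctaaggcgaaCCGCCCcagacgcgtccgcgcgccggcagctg

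The windows differed in composition. COL6A3 held none of the 4 motifs and 4 CG dinucleotides, against a median of 14 over all 35116 promoter windows of the table (quartiles 4 and 28). COL11A1 held 1 CCAAT box, 3 GC boxes and 12 CG dinucleotides. COL15A1 held 1 GC box and 45 CG dinucleotides, COL12A1 held 2 GC boxes and 29, and the windows of COL4A1 and COL4A2 held 45 each. The start sites of COL4A1 and COL4A2 had 126 bases between them, so that 226 bases of the 2 windows are the same DNA read from opposite strands. The other type IV pairs were arranged in the same way, with 418 bases between COL4A4 and COL4A3 and 379 between COL4A6 and COL4A5. A further annotated start of COL4A6 had 1415 bases to that of COL4A5, and its window shared no bases with the COL4A5 window.

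Of the 44 genes, 32 had a window in the table, and all of their windows matched hg38. The 12 genes without a window included COL1A1, COL1A2, COL8A1 and COL14A1, whose transcripts fell, so the motif counts leave these out. A GC box stood in some window of 21 of the 32 genes (65.6%), against 45.0% of all windows, and a TATA box in 7 (21.9%), against 11.5%. A CCAAT box was found for 12 genes (37.5%, against 34.6%) and an AP-1 site for 1 gene, COL10A1 (3.12%, against 7.71%). The core of the antioxidant response element (TGACNNNGC) was found for 3 genes (9.38%, against 13.3%), and that of the amino acid response element (TGATGNAA) for 1 gene, COL21A1 (3.12%, against 3.62%). The antioxidant matches of COL4A5 and COL4A6 lie in their shared stretch. A gene can have several windows and each of the background shares is a share of windows, so the paired values describe the letters found and were not tested.

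Summed over the 44 genes, collagen transcripts made up a smaller part of the counts after Erastin. The sum is weighted to the genes with most counts. COL6A3 alone held 48389 and 50028 of the 154133 and 153413 collagen counts in control cells. After Erastin it held 11540 and 12064 of 74871 and 75235. Of the 27 genes tested, 21 had a lower fitted value and 6 a higher one. The share of all counts that fell on the 44 genes was 0.489% and 0.491% in control cells, and 0.255% and 0.243% after Erastin. The Wilson 95% intervals of the single libraries lay within 0.487 to 0.493% and 0.242 to 0.256%. They cover counting error only and take every count as independent. The groups did not overlap, with 0.490% ± 0.00119 (SD, n = 2) against 0.249% ± 0.00797 (SD, n = 2), and the exact two-sided permutation test gave p = 0.333, the smallest that 2 libraries against 2 allow.

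Of the 44 genes, 27 had enough counts to be tested (7 fibrillar, 5 of basement membranes and 15 other), and 17 did not. A gene was called when its fold change was at least 1 on the log2 scale in either direction and its p in the quasi-likelihood test of edgeR, adjusted by Benjamini-Hochberg over 16751 genes, was under 0.05. By this rule 8 collagen genes were downregulated and 1 was upregulated, where 9.34% of all genes tested were called down and 6.24% up. With the adjusted p alone, 14 were lower and 4 were higher (23.7% and 23.2% of all genes tested), and 9 did not pass. Erastin libraries lay below control libraries without overlap for 17 genes and above them for 6, where this held for 36.9% and 36.7% of all genes tested. The median log2 fold change of the 27 genes was -0.71, against -0.00259 over all genes tested. It was -0.97 for the fibrillar, -0.13 for the basement membrane and -0.84 for the other genes. A gene that passed the count filter only through the group where it was high had to differ, so these counts describe the genes tested and not all 44.

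**Figure D1:**
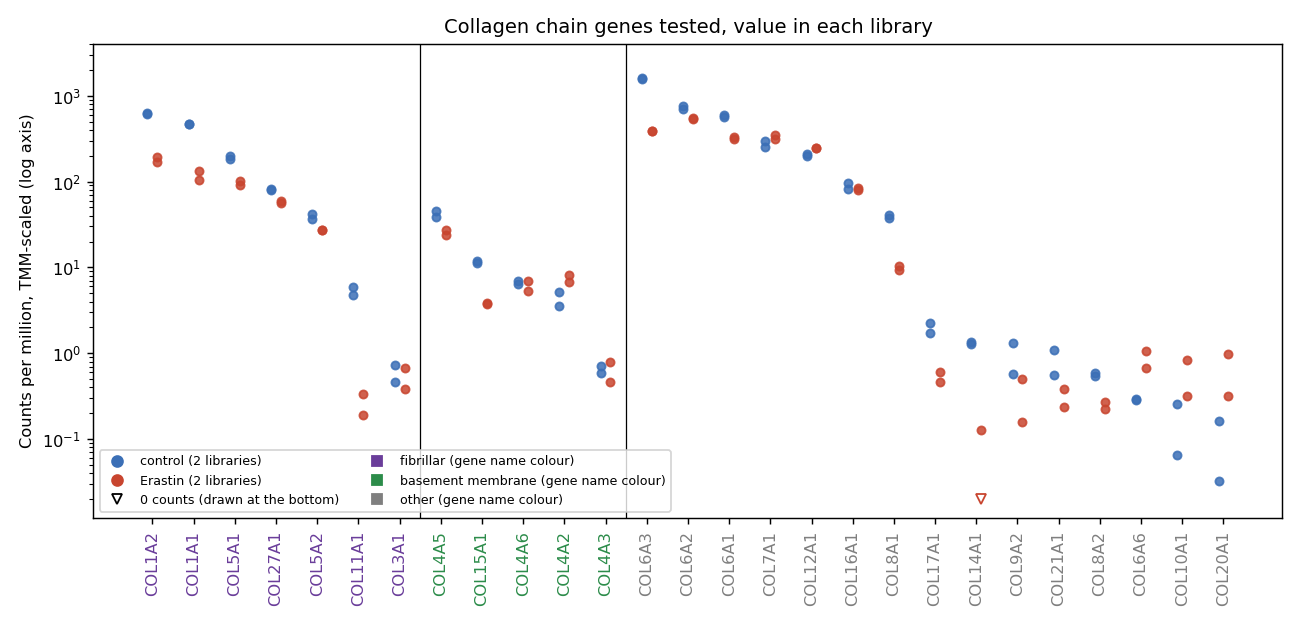
Counts scaled to library size with TMM factors (CPM) and drawn on a log axis, of the 27 collagen chain genes tested, with 1 point for each of the 2 control (blue) and 2 Erastin (red) libraries and the genes ordered within each class by level. The blue points of COL6A3, COL1A2 and COL1A1 sit clear above the red ones, those of COL7A1 and COL12A1 lie just below them, and the genes at the right end were measured by a few counts.

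Type I collagen, the main fibre former of skin, bone and tendon, is built from 2 chains of COL1A1 and 1 of COL1A2. COL1A1 (ENSG00000108821, chr17:50183289-50201632 of GRCh38, like all gene positions here) had 14391 and 14658 counts in control cells, and 3967 and 3287 after Erastin. COL1A2 (ENSG00000164692, chr7:94394561-94431232) had 18738 and 19601 against 5739 and 5313 counts. Both genes were low in both Erastin libraries, without overlap. COL1A1 was 3.97-fold lower (log2 fold change -1.99, SE 0.0973, adjusted p = 1.85e-08) and COL1A2 3.45-fold lower (-1.78, SE 0.0747, adjusted p = 5.13e-09).

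COL11A1 (ENSG00000060718, chr1:102876467-103108496), a chain of the type XI collagen that is known for seeding thin cartilage fibrils, changed most among the fibrillar genes. It had 147 and 185 counts in control cells, and 10 and 6 after Erastin, a log2 fold change of -4.34 (SE 0.377, adjusted p = 2.23e-06). Its partner in cartilage, COL11A2, had 0 counts in every library. At a limit of 3 counts this allows at most 0.09548 to 0.1003 CPM in a library, for reads that match a single place. For COL11A2, 71.8% of all stretches of 31 bases in the longest transcript also lie on alternate scaffolds of the genome. Reads that match several places are not in the counts, so the limit need not hold for all COL11A2 RNA. Whether such reads were lost here was not tested.

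The chains of type V, which sits in the core of type I fibrils and limits their width, were lower by smaller amounts. COL5A1 (ENSG00000130635) had 6056 and 5639 against 3061 and 2883 counts, 1.96-fold lower (log2 fold change -0.97, SE 0.0782, adjusted p = 1.20e-06). This value sits just inside the fold threshold and so was not called. Without control replicate 2 it was -1.04 and without Erastin replicate 1 it was -1.05, both called. COL5A2 had 1112 and 1286 against 809 and 856 counts (-0.52, adjusted p = 0.00147), and COL27A1, a fibrillar collagen of cartilage and developing tissues, had 2487 and 2477 against 1704 and 1850 counts (-0.48, adjusted p = 2.28e-04). The 6 fibrillar genes that passed the adjusted p were therefore all lower in the Erastin libraries, and their log2 fold changes ran from -4.34 to -0.48.

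COL3A1, the companion of type I in soft tissue and vessels, was measured by few counts, with 14 and 23 in control cells, and 20 and 12 after Erastin. The groups overlapped (-0.19, SE 0.615, adjusted p = 0.826), and the sign turned when control replicate 2 (0.19) or Erastin replicate 2 (0.16) was left out. COL24A1 had 0 and 6 against 17 and 0 counts, COL5A3 had 0 and 6 against 0 and 5, and COL2A1, the main collagen of cartilage, had 0 in every library. No direction can be read for these at this depth.

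**Figure D2:**
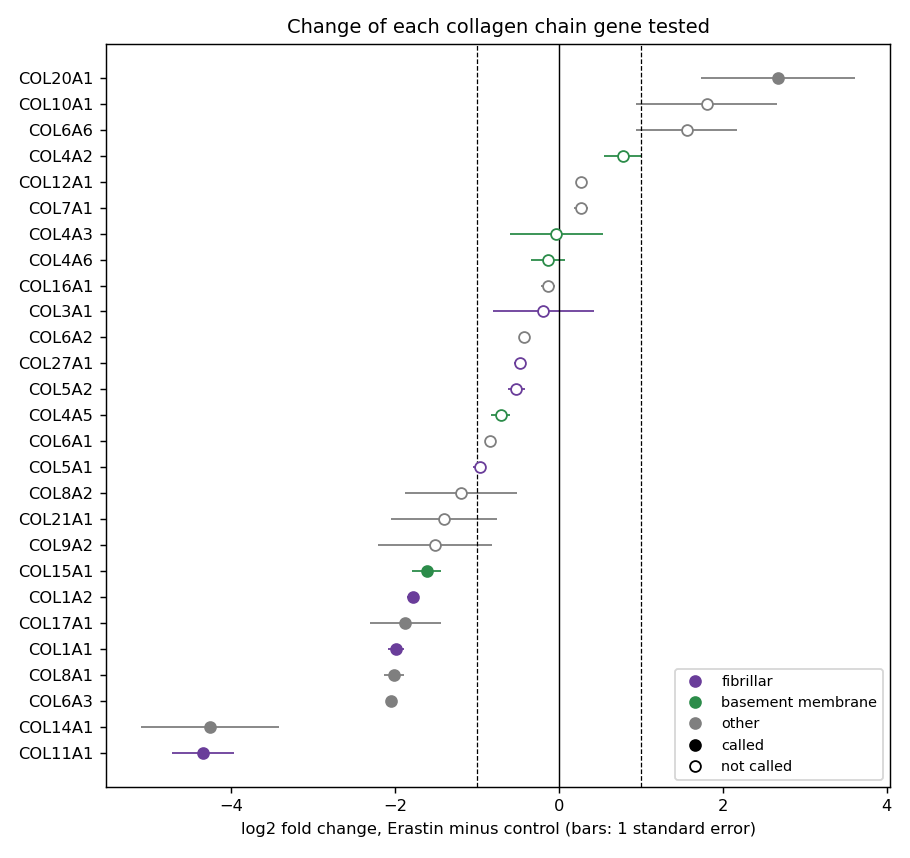
Fold change on the log2 scale, Erastin minus control, of each of the 27 collagen chain genes tested, with bars of 1 standard error, filled points for called genes and dashed lines at the fold threshold of 1 in either direction. The 8 downregulated genes lie between -4.34 and -1.61, COL5A1 stops just inside the line, and the genes above zero apart from COL4A2, COL7A1 and COL12A1 have wide bars.

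The basement membrane genes did not move together. COL15A1 (ENSG00000204291, chr9:98943179-99070792), a multiplexin that links basement membranes to the fibres around them, was the called member, with 362 and 352 counts in control cells, and 111 and 121 after Erastin. It was 3.06-fold lower (log2 fold change -1.61, SE 0.178, adjusted p = 1.60e-05). COL4A5, a chain of the type IV network of the kidney filter, had 1178 and 1428 against 826 and 756 counts (-0.71, SE 0.117, adjusted p = 3.66e-04). Its head-to-head neighbour COL4A6 had 196 and 218 against 158 and 219 counts, overlapping groups (-0.13, adjusted p = 0.636), and the sign turned without Erastin replicate 1 (0.05).

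COL4A2 was the member of this class that was higher after Erastin. It had 157 and 111 counts in control cells, and 243 and 215 after Erastin, without overlap (log2 fold change 0.78, SE 0.227, adjusted p = 0.0141). It was past the fold threshold only without control replicate 1 (1.06), and missed the adjusted p without control replicate 2 (0.53, adjusted p = 0.0627) or Erastin replicate 1 (0.65, adjusted p = 0.0889). COL4A1, with which COL4A2 forms the common type IV trimer, had 2 and 2 counts in control cells, and 2 and 0 after Erastin, although the genes start within the stretch printed above. In that stretch both windows hold the same CCAAT box, at position -26 from the start of COL4A1 and -105 from that of COL4A2. No stretch of 31 bases in the longest COL4A1 transcript occurs on an alternate scaffold or in another gene.

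The third type IV pair was sparse. COL4A3 had 18 and 22 against 14 and 25 counts (log2 fold change -0.03, SE 0.569, adjusted p = 0.967), and its sign turned in 4 of the alternatives. COL4A4 had 8 and 24 counts in control cells, and 2 and 0 after Erastin and did not pass the count filter, although it was called down where no filter was used (-3.83, adjusted p = 0.006) and by DESeq2 (-3.97, adjusted p = 0.0449). COL18A1, the multiplexin whose end piece is endostatin, had 8 and 14 against 0 and 5 counts. It shares 16.43% of its exon bases with SLC19A1 on the opposite strand (613 and 568 against 146 and 159 counts), and reads on such shared bases were not assigned to either gene.

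Type VI collagen carried most of the collagen transcripts in both groups, and its chains were lower by different amounts. COL6A3 (ENSG00000163359, chr2:237324003-237414375), the longest chain and the one that carries endotrophin at its end, had 48389 and 50028 counts in control cells, and 11540 and 12064 after Erastin. It was 4.15-fold lower (log2 fold change -2.05, SE 0.0630, adjusted p = 5.80e-10). COL6A1 (ENSG00000142156) had 18200 and 17309 against 9818 and 9925 counts, 1.79-fold lower (-0.84, SE 0.0657, adjusted p = 9.16e-07). COL6A2 (ENSG00000142173) had 23307 and 21588 against 16140 and 17229 counts, 1.34-fold lower (-0.42, SE 0.0671, adjusted p = 2.84e-04). Each of the 3 was lower without overlap. COL6A6, an alternative to COL6A3 in the trimer, had 9 and 9 against 32 and 21 counts (1.56, SE 0.613, adjusted p = 0.0555) and passed the threshold in 3 of the alternatives, and COL6A5 had 0 in every library.

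The 3 chains join in equal number in the type VI trimer, and their ratios were taken per kilobase of exon. The exon length was 19633 bases for COL6A3 and 5343 for COL6A1, while their longest transcripts had 10532 and 4203. The level of a ratio depends on the length used, here and below, so only the difference between the groups is read. The ratio of COL6A3 to COL6A1 was 0.724 and 0.787 in control cells, and 0.320 and 0.331 after Erastin. That of COL6A3 to COL6A2 was 0.570 and 0.636 against 0.196 and 0.192. Both ratios were lower in both Erastin libraries, 2.32-fold for the first and 3.10-fold for the second. That of COL6A2 to COL6A1 was 1.27 and 1.24 against 1.63 and 1.72, so that COL6A2 stood higher against its partner after Erastin. A ratio shows unequal change of the chains and not which of them changed.

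For type I the ratio of COL1A1 to COL1A2 was 0.873 and 0.850 in control cells, and 0.785 and 0.703 after Erastin. For type V that of COL5A1 to COL5A2 was 3.48 and 2.80 against 2.42 and 2.15, and for the head-to-head pair that of COL4A5 to COL4A6 was 6.38 and 6.96 against 5.55 and 3.67. Each of these was lower after Erastin without overlap, by less than the ratios of COL6A3. For the 6 ratios of types VI, I and V and of this pair the exact two-sided permutation p was 0.333, the smallest possible (0.458 after Benjamini-Hochberg adjustment over the 11 ratios tested). The ratio of COL3A1 to COL5A2 overlapped between the groups (0.0132 and 0.0188 against 0.0260 and 0.0147). Counts of COL8A2 fell below 10 in the Erastin libraries, and there the ratio of COL8A1 to COL8A2 was 31.99 and 37.4 against 17.3 and 22.9.

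**Figure D3:**
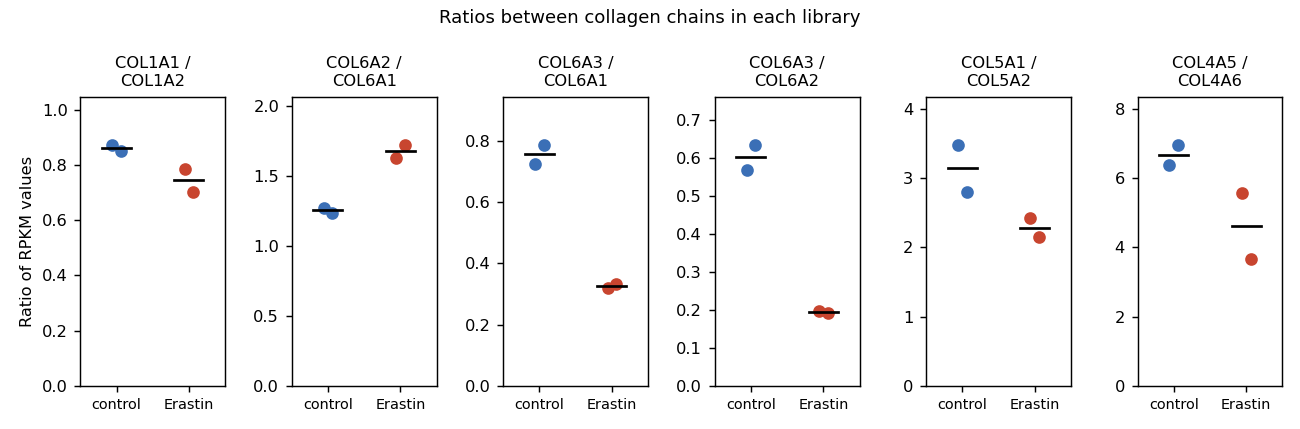
Ratio of the RPKM values (counts per kilobase of exon, scaled to library size) of collagen chains that form one trimer or lie head to head, with 1 point per library (control blue, Erastin red), a bar at the mean of each group of 2 and a linear axis from 0 that has its own scale in each panel. The ratios of COL6A3 to its partners separate furthest, from 0.603 to 0.194 for that to COL6A2 on average. The ratio of COL6A2 to COL6A1 is the one that is higher after Erastin.

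Among the remaining collagens, 3 more were downregulated. COL8A1 (ENSG00000144810), a short-chain collagen of vessel walls and the cornea, had 1160 and 1282 counts in control cells, and 279 and 323 after Erastin, 4.04-fold lower (log2 fold change -2.01, SE 0.118, adjusted p = 8.06e-08). COL14A1, which decorates type I fibrils, had 41 and 40 against 0 and 4 counts (-4.26, SE 0.838, adjusted p = 0.00133), and its fitted value was -3.33 without Erastin replicate 1 and -8.33 without Erastin replicate 2, which leaves a library with 0 counts. COL17A1, a transmembrane collagen that anchors skin cells to the basement membrane, had 68 and 54 against 14 and 19 counts (-1.87, SE 0.432, adjusted p = 0.00371). The groups of all 3 were apart, but the last was not called when the fold itself was tested against the threshold (glmTreat, adjusted p = 0.113).

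Type VII and type XII went the other way by small amounts. COL7A1, the anchoring fibril collagen that ties the basement membrane to the stroma, had 8983 and 7939 counts in control cells, and 10431 and 9812 after Erastin, 1.203-fold higher (log2 fold change 0.27, SE 0.0820, adjusted p = 0.0186). COL12A1, a fibril-associated collagen, had 6059 and 6444 against 7344 and 7687 counts, 1.209-fold higher (0.27, SE 0.0646, adjusted p = 0.00438). Both were higher in both Erastin libraries, and neither came near the fold threshold. COL7A1 missed the adjusted p without control replicate 2 (0.16, adjusted p = 0.0607) or Erastin replicate 1 (0.18, adjusted p = 0.212). COL16A1 had 2955 and 2577 against 2490 and 2534 counts, which overlapped once scaled to library size at 96.6 and 83.0 against 83.2 and 80.6 CPM (-0.13, adjusted p = 0.220).

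COL20A1 was the single upregulated collagen gene and rested on few counts, 5 and 1 in control cells and 29 and 10 after Erastin (log2 fold change 2.67, SE 0.939, adjusted p = 0.0351). It was not called by DESeq2 (adjusted p = 0.0812), without control replicate 2 (1.94, adjusted p = 0.184) or without Erastin replicate 1 (1.66, adjusted p = 0.437), and was 4.15 without control replicate 1 and 3.26 without Erastin replicate 2. COL10A1, the collagen of hypertrophic cartilage, had 2 and 8 against 25 and 10 counts (1.80, adjusted p = 0.108). COL9A2 (40 and 18 against 15 and 5 counts, -1.51, adjusted p = 0.0960), COL21A1 (17 and 34 against 7 and 12 counts, -1.41, adjusted p = 0.0955) and COL8A2 (18 and 17 against 8 and 7 counts, -1.20, adjusted p = 0.173) also did not pass. For these genes depth limits what can be seen.

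Of the 17 genes not tested, 6 had 0 counts in every library, namely COL2A1, COL11A2, COL6A5, COL13A1, COL22A1 and COL23A1. The other 11 had at most 24 counts in any library. Among them COL26A1 had 0 and 0 against 4 and 4 counts, COL28A1 4 and 2 against 6 and 11, and COL25A1 0 and 3 against 4 and 4. COL19A1 had 2 and 3 against 2 and 0, COL9A3 0 and 5 against 0 and 0, and COL9A1 0 and 0 against 0 and 1. These values lie near the limit of 3 counts and carry no comparison.

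Set per exon length, the makeup of the collagen transcripts differed between the groups. The summed level of the 44 genes was 531 and 511 RPKM in control cells, and 296 and 286 after Erastin. Type VI was 334 and 315 RPKM against 181 and 181, with a share of the sum of 62.8 and 61.7% against 61.2 and 63.2%. Type I was 103 and 105 RPKM against 30.7 and 25.8, and its share was 19.4 and 20.5% against 10.4 and 9.03%. Type VII had a share of 5.00 and 4.52% against 10.6 and 9.87%, and its level was 26.5 and 23.1 RPKM against 31.5 and 28.2. Type XII had a share of 2.99 and 3.25% against 6.64 and 6.86%. The shares of types I, VII and XII did not overlap between the groups (exact permutation p cannot go below 0.333), and those of types VI and V (4.29 and 4.31% against 4.36 and 4.21%) did. Shares of one sum are not independent of each other.

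The order of the single chains by mean level differed between the groups. In control cells it ran COL6A2 (135 ± 8.84 RPKM), COL6A1 (108 ± 5.03), COL6A3 (81.3 ± 1.01), COL1A2 (55.7 ± 1.15), COL1A1 (48.0 ± 0.0868) and COL7A1 (24.8 ± 2.44; SD, n = 2 for each). In Erastin-treated cells it ran COL6A2 (101 ± 1.15), COL6A1 (60.3 ± 1.64), COL7A1 (29.9 ± 2.33), COL12A1 (19.6 ± 0.0499), COL6A3 (19.6 ± 0.0670), COL1A2 (16.2 ± 1.44) and COL1A1 (12.1 ± 2.02). COL12A1 and COL6A3 overlapped in their library values after Erastin, while every other pair of neighbours named here was apart. COL6A2 stayed among the most abundant protein-coding transcripts, at rank 176 of 19708 in control and 274 in Erastin-treated cells, while COL6A3 went from rank 358 to 2293 and COL1A1 from 734 to 3700. The exon length behind these levels was 19633 bases for COL6A3, 11156 for COL1A2 and 12481 for COL12A1. Their longest transcripts had 10532, 5993 and 11725 bases. The order between genes, the ranks and the shares by type therefore hold for this exon length, and another length was not tried. The change of a single gene between the groups does not depend on it.

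**Figure D4:**
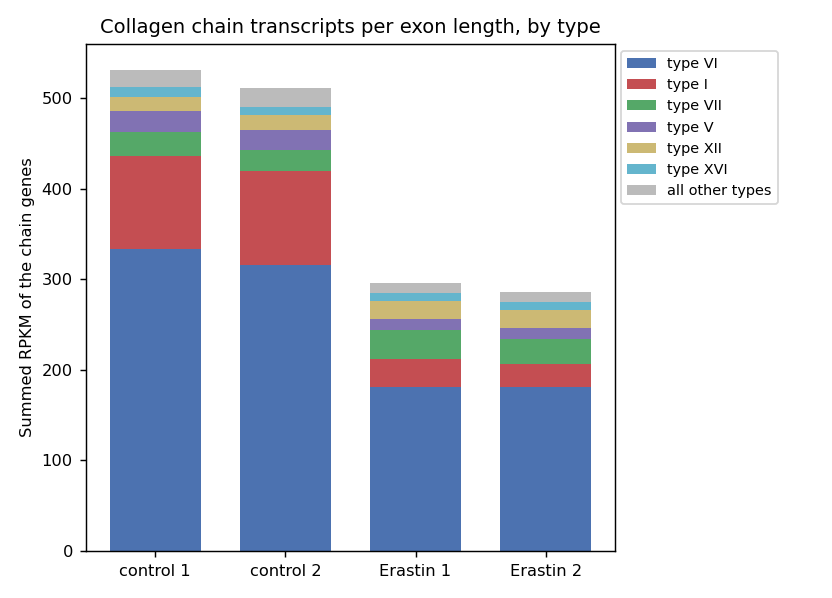
Summed RPKM of the collagen chain genes in each of the 4 libraries, stacked by collagen type on a linear axis from 0. The stacks of the Erastin libraries reach 296 and 286 against 531 and 511 RPKM in the control libraries, the type I segment is 10.4 and 9.03% of the stack after 19.4 and 20.5%, and the type VII and XII segments are not smaller.

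The 24 genes of intracellular collagen synthesis were all tested and none was called. Most of the list is hydroxylases, chaperones, glycosyltransferases and transport factors, and it also holds CREB3L1 and SLC39A13. Of the 24 genes, 7 were higher and 8 lower by the adjusted p, where 23.2% and 23.7% of all genes tested were. Their median log2 fold change was -0.06. KLHL12, an adaptor for the large transport carriers of procollagen, had 2188 and 2156 counts in control cells, and 3880 and 4232 after Erastin (0.91, SE 0.0693, adjusted p = 7.53e-07). P4HA1, a catalytic subunit of prolyl 4-hydroxylase, had 3384 and 3694 against 5311 and 5580 counts (0.63, SE 0.0687, adjusted p = 1.48e-05). P3H1, a prolyl 3-hydroxylase, had 3495 and 4153 against 2205 and 2296 counts (-0.76, SE 0.0831, adjusted p = 1.54e-05). The synthesis genes that passed the adjusted p thus lay on both sides of 0 and inside the fold threshold.

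Further members of this list, picked after their values were seen, also lay on both sides of 0. SERPINH1, the collagen chaperone HSP47, had 3506 and 3552 against 5304 and 4889 counts (log2 fold change 0.54, SE 0.0765, adjusted p = 1.16e-04). PPIB, a prolyl isomerase that acts with P3H1, had 3860 and 4000 against 2614 and 2677 counts (-0.56, SE 0.0676, adjusted p = 3.13e-05). P4HA3, a minor prolyl 4-hydroxylase subunit, had 4 and 6 against 17 and 18 counts and did not pass (1.79, SE 0.739, adjusted p = 0.0665).

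Of the 14 genes that trim and crosslink collagen outside the cell 10 were tested and 6 were downregulated, with none called up (9.34% of all genes tested were called down and 6.24% up) and a median log2 fold change of -1.27 over those tested. LOXL2, a lysyl oxidase that starts crosslinks, had 15731 and 15415 counts in control cells, and 4393 and 4310 after Erastin (-1.83, SE 0.0683, adjusted p = 1.95e-09). LOXL1 had 6802 and 6517 against 2449 and 2459 counts (-1.43, adjusted p = 1.89e-08) and LOX 5136 and 5534 against 2119 and 2173 (-1.31, adjusted p = 3.94e-08). All 3 lysyl oxidases were low in both Erastin libraries, while LOXL3 did not pass (-0.17, adjusted p = 0.0776).

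PCOLCE, which enhances the removal of the C-terminal propeptide, had 1526 and 1917 counts in control cells, and 298 and 395 after Erastin (log2 fold change -2.31, SE 0.140, adjusted p = 1.12e-07). ADAMTS2, which removes the N-terminal propeptide of fibrillar procollagens, had 1669 and 1613 against 725 and 670 counts (-1.23, adjusted p = 1.43e-06), but was not called against the fold threshold itself (glmTreat, adjusted p = 0.0761). ADAMTS3, its paralogue, had 205 and 136 against 13 and 14 counts (-3.64, SE 0.354, adjusted p = 5.59e-06). These 3 genes fell, and the other 3 propeptide genes tested did not. BMP1, the C-proteinase that PCOLCE enhances, had 2792 and 2654 against 2683 and 2715 counts (-0.01, adjusted p = 0.960), a value whose sign turned in 3 of the alternatives. PCOLCE2, the paralogue of PCOLCE, had 927 and 1187 against 1290 and 1308 counts (0.31, SE 0.114, adjusted p = 0.0450). It did not pass with DESeq2 (adjusted p = 0.0669), nor when control replicate 1 or either Erastin library was left out. With a library left out, the log2 fold change of PCOLCE2 ran from 0.15 to 0.47. ADAMTS14, the other paralogue of ADAMTS2, had 2 and 39 against 41 and 57 counts (1.26, SE 0.762, adjusted p = 0.200) and was called up with no count filter and without control replicate 2 (4.52), the library with 39 counts.

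The receptors of collagen included 3 downregulated genes among 7 tested of 11 (9.34% of all genes tested were called down), and all 3 encode integrin α chains. ITGA11 had 208 and 229 counts in control cells, and 22 and 64 after Erastin (log2 fold change -2.34, SE 0.365, adjusted p = 2.40e-04), with -1.80 without Erastin replicate 1 and -3.26 without Erastin replicate 2. ITGA10 had 849 and 906 against 203 and 200 counts (-2.11, adjusted p = 1.09e-07), and ITGA1 had 1101 and 1161 against 363 and 383 (-1.59, adjusted p = 3.33e-07). The fourth collagen-binding α chain, ITGA2, was also lower and was not called (-0.90, adjusted p = 3.61e-06), like the shared β chain ITGB1 with 32704 and 35753 against 18169 and 18353 counts (-0.90, adjusted p = 5.38e-07). DDR2, a receptor tyrosine kinase for fibrillar collagen, was higher at 8012 and 7791 against 12593 and 13313 counts (0.72, SE 0.0635, adjusted p = 2.48e-06), and DDR1 had 0 to 2 counts.

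**Figure D5:**
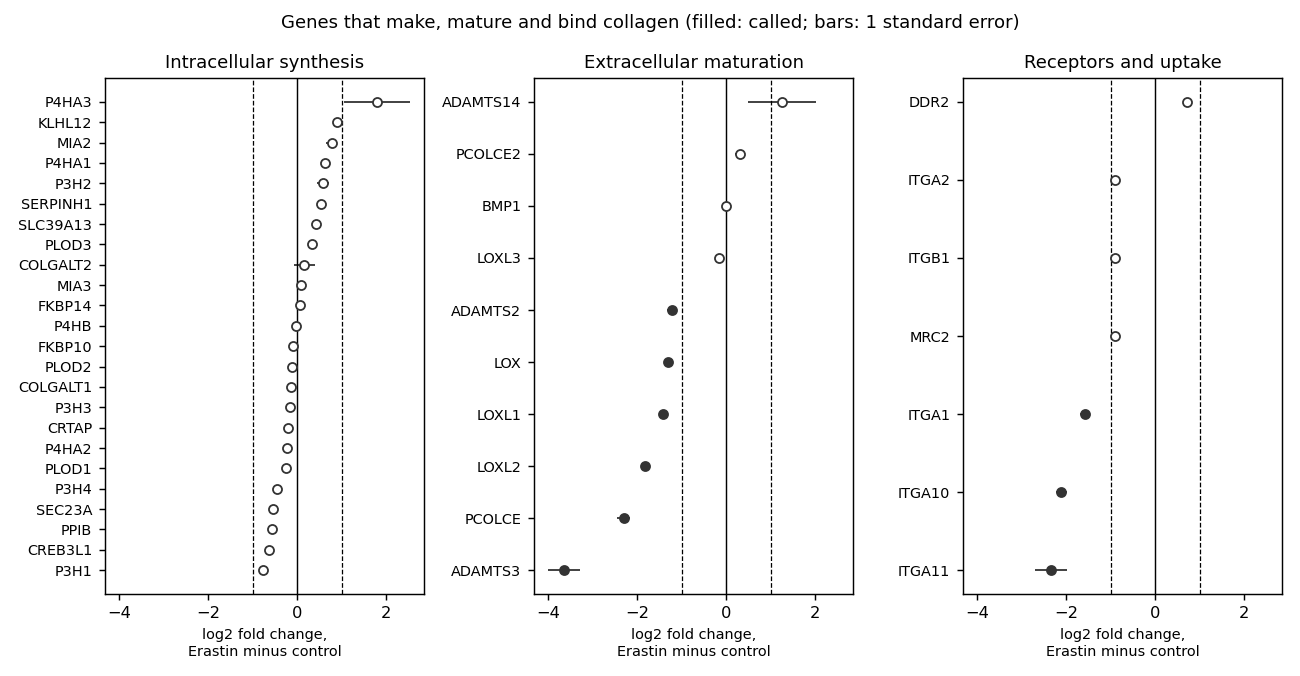
Fold change on the log2 scale, Erastin minus control, of the tested genes for collagen synthesis (24), maturation (10) and receptors (7), with bars of 1 standard error, filled points for called genes and dashed lines at a fold change of 1 in either direction. The synthesis genes are spread around 0 with no filled point, 6 of the maturation genes are filled between -3.64 and -1.23, and 3 integrin genes are filled between -2.34 and -1.59.

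Markers of other cells were checked beside these results. The 6 fibroblast and pericyte markers summed to 332 and 282 CPM in control cells, and 94.2 and 97.4 after Erastin. Of the 4 tested, CSPG4 (7646 and 6352 against 1513 and 1662 counts) and PDGFRB (1752 and 1577 against 532 and 594 counts) were called down, RGS5 was higher (121 and 123 against 190 and 187 counts, log2 fold change 0.64, adjusted p = 0.0257) and FAP had 627 and 680 against 578 and 608 counts. DPT was at 0 in every library and PDGFRA had 6 to 18 counts. The 6 endothelial markers summed to 19.4 and 23.3 against 7.82 and 9.68, with CLDN5 at 0 and CDH5 at 0 or 1 count. Of the 4 tested, TEK (210 and 265 against 77 and 85 counts) and PECAM1 (138 and 188 against 31 and 33) were called down, VWF (4 and 4 against 17 and 32) was called up, and KDR (240 and 268 against 108 and 154) was lower by the adjusted p. The 5 immune markers used summed to 8.67 and 8.47 against 5.35 and 5.67, with AIF1 and CD3E at 0, PTPRC at 0 or 1 and CD14 at 1 to 12 counts. CSF1R, the one tested, made up most of that sum with 8.37 and 8.34 against 4.91 and 5.63 CPM (-0.66, adjusted p = 0.0116). The 6 epithelial markers summed to 0.327 and 0.547 against 0.535 and 0.223. The 6 neuronal markers summed to 64.5 and 69.6 against 27.01 and 26.0, with SNAP25 called down of 3 tested. Of the astroglial markers 2 of 6 tested were called down, and of the mesenchymal markers none of 4, where 9.34% of all genes tested were called down and 6.24% up. The 8 markers of dividing cells were all called down and summed to 1328 and 1255 against 146 and 148 CPM. Their part in the collagen result was not tested.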

How the data were processed

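Total RNA of U87MG cells was sequenced in 2 control and 2 Erastin (10 μM, 72 h) libraries, and the authors deposited raw counts of reads per gene. Per the file header, featureCounts 2.0.3 was run on the Ensembl release 90 annotation of GRCh38, and the submitters' processing notes name HISAT2 2.1.0 and featureCounts 2.0.4. Counting was unstranded, left out reads with several places or genes, and counted each read of a pair. Estimated counts can hold decimals, but every value deposited was a whole number, and rounding altered none. No normalization had been applied. H3K27ac ChIP-seq and HiChIP data of the series are not analysed here, and 2 cell type markers are not reported here.

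Symbols and gene types were those of GENCODE release 44, matched by Ensembl identifier for 57532 of 58302 genes. Libraries were scaled with TMM factors and tested with the quasi-likelihood test of edgeR 4.0.16 (R 4.3.3) after filterByExpr with a minimum of 10 counts, which left 16751 genes. The biological coefficient of variation was 10.3%. Fold changes are Erastin minus control on the log2 scale, and adjusted p-values are Benjamini-Hochberg values over all genes tested. Levels between genes were compared as RPKM on the exon length given with the counts. Intervals and the limit of 3 counts cover counting error only, since PCR copies were not marked by molecular identifiers. They take counts as independent, although both reads of a pair could be counted, so they may be too narrow.

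All 44 collagen genes were accounted for. Of the lists of synthesis, maturation, receptor and proteoglycan genes, all called members were named, or else the 3 with the smallest adjusted p, and further genes were named after their values were seen. Genes and lists were chosen with earlier results of these data known. The alternatives were DESeq2 1.42.0, RLE factors, library totals, the replicate number as a block, no count filter, a filter of 10 or more counts in each library, halved counts, protein-coding genes only, glmTreat and each library left out in turn. Promoter sequences are RefSeq windows of GRCh38.p14.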

Additional observations from a re-analysis of the deposited data

How the results depend on the processing

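The number of collagen genes called down stayed between 6 and 11 in every alternative, from 6 with at least 10 counts in every library to 11 without Erastin replicate 1. The 8 called genes were called in every fit that tested them, except COL17A1 with glmTreat. COL11A1 and COL14A1 had fewer than 10 counts in an Erastin library and so were not tested under the filter of 10 or more counts in every library. The number called up was 1 in the reported fit, 0 with DESeq2, 0 with glmTreat, 0 with at least 10 counts in every library, 2 with library totals, 2 with protein-coding genes only and 0 to 2 when a library was left out. COL6A6 was the added gene under library totals and protein-coding genes only, and with halved counts it was the single one. The median log2 fold change of the collagen genes was -0.71, moved to -0.52 with at least 10 counts in every library, and ran from -0.84 to -0.50 when a library was left out. It was nearest to 0 without control replicate 2. The share of counts on collagen genes differed by -0.241 percentage points, by -0.248 over protein-coding counts, and by -0.247 to -0.235 when a library was left out.

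The number of synthesis and maturation genes called up was 0, and 1 with no low-count filter, 1 with the replicate block and 0 to 1 when a library was left out. That gene was ADAMTS14, with 2 and 39 counts in control cells and 41 and 57 after Erastin (1.26 on the log2 scale, and 4.52 without control replicate 2). The number called down was 6, and 5 with glmTreat. Libraries of the same replicate number showed almost no shared deviation (correlation of deviations 0.0203), which cannot tell whether they were prepared as pairs. With the replicate block 8 collagen genes were again called down and 1 up.

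Signs turned for COL3A1 (0.19 without control replicate 2, 0.16 without Erastin replicate 2, range -0.65 to 0.19 with a library left out), COL4A6 (0.0524 without Erastin replicate 1, range -0.35 to 0.0524), COL4A3 (0.0136 with library totals, 0.00094 with halved counts, 0.10 without control replicate 2, 0.29 without Erastin replicate 1, range -0.47 to 0.29) and BMP1 (0.045 with library totals, 0.041 without control replicate 1, 0.022 without Erastin replicate 2, range -0.0606 to 0.041). The cause was not tested. With glmTreat left out, 561 single-gene values were taken under the alternatives. Of these, 537 kept their direction and their side of the threshold, and 10 turned sign. Another 10 passed the threshold only under the alternative, and 4 lost it. Among the collagen, synthesis and maturation genes, COL17A1, COL20A1 and ADAMTS2 lost their call with glmTreat. COL9A2 was called without a count filter (-1.51), without control replicate 2 (-1.99) and without Erastin replicate 1 (-2.54), and was -0.81 without control replicate 1 and -0.91 without Erastin replicate 2. For collagen genes with a few counts per library, depth limits what can be seen. Over all genes glmTreat called 377 up and 748 down, against 1046 and 1564.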

Other observations

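The small leucine-rich proteoglycans, which bind collagen fibrils and regulate their width and spacing, were sparse in these cells. Of 10 genes 4 were tested, and 3 had 0 counts in every library. BGN, which encodes biglycan, had 84 and 163 counts in control cells, and 52 and 40 after Erastin (log2 fold change -1.41, SE 0.359, adjusted p = 0.00687 by edgeR). Without control replicate 2 it was no longer called (-0.88, adjusted p = 0.0946). LUM, which encodes lumican, had 420 and 505 against 223 and 295 counts (-0.83, SE 0.165, adjusted p = 0.00143), and was called without Erastin replicate 2 (-1.01). DCN, the decorin gene, had 24 and 29 against 19 and 14 counts (-0.67, adjusted p = 0.342), and FMOD, the fibromodulin gene, had 0 and 0 against 2 and 12 counts.

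The uptake receptor MRC2, which carries collagen fragments to the lysosome, had 7865 and 6909 counts in control cells, and 3965 and 3882 after Erastin (-0.91, SE 0.0811, adjusted p = 2.83e-06). PXDN, a peroxidase that crosslinks type IV collagen, had 0 and 0 against 5 and 8 counts and was not tested.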
